A study of Mus musculus with 6 samples.

Results

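The Mir17-92 cluster is a run of 6 microRNA hairpins on mouse chromosome 14 that are carried by 1 long noncoding host transcript, Mir17hg. Its members were taken as the 7 of 41079 listed genes of the expression table that bear the names Mir17hg, Mir17, Mir18, Mir19a, Mir20a, Mir19b-1 and Mir92-1. They were picked for study because several of them had differed between the 2 temperatures in these same libraries, so their levels are described below and no test is attached to them. The libraries were made from D10 cells, a mouse helper T cell clone labelled CD4+ and derived from lymph node, which bears no engineered allele by its labels. Cold-acclimated T cells had spent 24 h at 26°C (3 replicates) and non-acclimated T cells 24 h at 37°C (3 replicates), and the labels name no other treatment. All 6 libraries come from a single cloned line, so they speak for that clone. Values are in TPM, which divides the reads on a gene by its length and scales each library to a total of 1000000.

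The cluster is first transcribed as a long primary transcript. In the nucleus the Drosha and Dgcr8 complex (the Microprocessor) cuts the hairpins out of it, after which Dicer1 trims each hairpin and an Argonaute protein takes up 1 strand as the mature microRNA. The mature strand pairs through its seed, bases 2 to 8, with sites in the 3′ UTRs of messenger RNAs and lowers their output. In lymphocytes the cluster is known for driving proliferation and survival, is switched on by Myc and E2F factors, and restrains Bcl2l11 (Bim). Poly(A)+ libraries do not capture mature microRNAs, which are too short and carry no poly(A) tail, so reads on a hairpin come from primary transcript or longer pieces of it. The hairpin rows reach past the mature strands, which span bases 27 to 84 of 107 in Mir20a. A read on a row therefore need not come from an uncut hairpin. None of the values below is a level of a mature microRNA.

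The mature strands usually taken as the main product of each hairpin are shown with the seed in capitals, since the seed sets which letters are searched for in 3′ UTRs further on. The sequences are those of RefSeq (GRCm38.p6), and for 6 of 6 hairpins the RefSeq letters were identical to the GRCm39 genome at the position given in the expression table.
mmu-miR-17-5p: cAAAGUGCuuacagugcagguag
mmu-miR-20a-5p: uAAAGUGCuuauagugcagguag
mmu-miR-18a-5p: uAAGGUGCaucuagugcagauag
mmu-miR-19a-3p: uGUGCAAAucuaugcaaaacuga
mmu-miR-19b-3p: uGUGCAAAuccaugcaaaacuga
mmu-miR-92a-3p: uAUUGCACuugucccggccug

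The 6 strands carry 4 different seeds. miR-17-5p and miR-20a-5p share 1 seed and are identical at 21 of 23 bases, and miR-19a-3p and miR-19b-3p share another and are identical at 22 of 23 bases. miR-18a-5p and miR-92a-3p each stand alone within the cluster.

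The hairpins with the most reads at 26°C (Mir18 and Mir20a) and the ones without any read (Mir19b-1 and Mir92-1) are shown next, 5′ to 3′ on the plus strand, with the annotated mature strands in capitals.
Mir18: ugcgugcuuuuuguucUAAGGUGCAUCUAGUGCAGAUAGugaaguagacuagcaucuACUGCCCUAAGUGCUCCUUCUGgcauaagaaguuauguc
Mir20a: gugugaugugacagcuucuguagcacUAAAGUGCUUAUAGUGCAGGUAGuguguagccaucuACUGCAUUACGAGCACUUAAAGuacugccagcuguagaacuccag
Mir19b-1: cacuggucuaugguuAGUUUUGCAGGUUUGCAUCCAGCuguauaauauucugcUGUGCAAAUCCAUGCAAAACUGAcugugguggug
Mir92-1: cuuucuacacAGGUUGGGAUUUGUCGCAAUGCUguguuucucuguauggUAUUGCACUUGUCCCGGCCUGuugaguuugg

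In GRCm39 these hairpins lie at chr14:115281283-115281378 (Mir18), chr14:115281589-115281695 (Mir20a), chr14:115281737-115281823 (Mir19b-1) and chr14:115281859-115281938 (Mir92-1). Mir17 lies at chr14:115281103-115281186 and Mir19a at chr14:115281432-115281513. The host row of the expression table covers a single block of 2339 bases, chr14:115281822-115284160. That block begins inside Mir19b-1, with which it shares 2 bases, and holds the 80 bases of Mir92-1 in full. The other 4 hairpins lie upstream of it and outside it. The host as annotated by GENCODE vM39 is longer and has 9 isoforms. Exon 2 of Mir17hg-201 covers all 6 hairpins, whereas each of them is intronic in 4 spliced isoforms, Mir17hg-202 to Mir17hg-205. The next annotated rows on either side were almost silent. Gm31072, 95375 bases before the cluster, reached at most 0.221 TPM in any library, and Gpc5, 45480 bases after it, at most 0.0142 TPM.

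**Figure D1:**
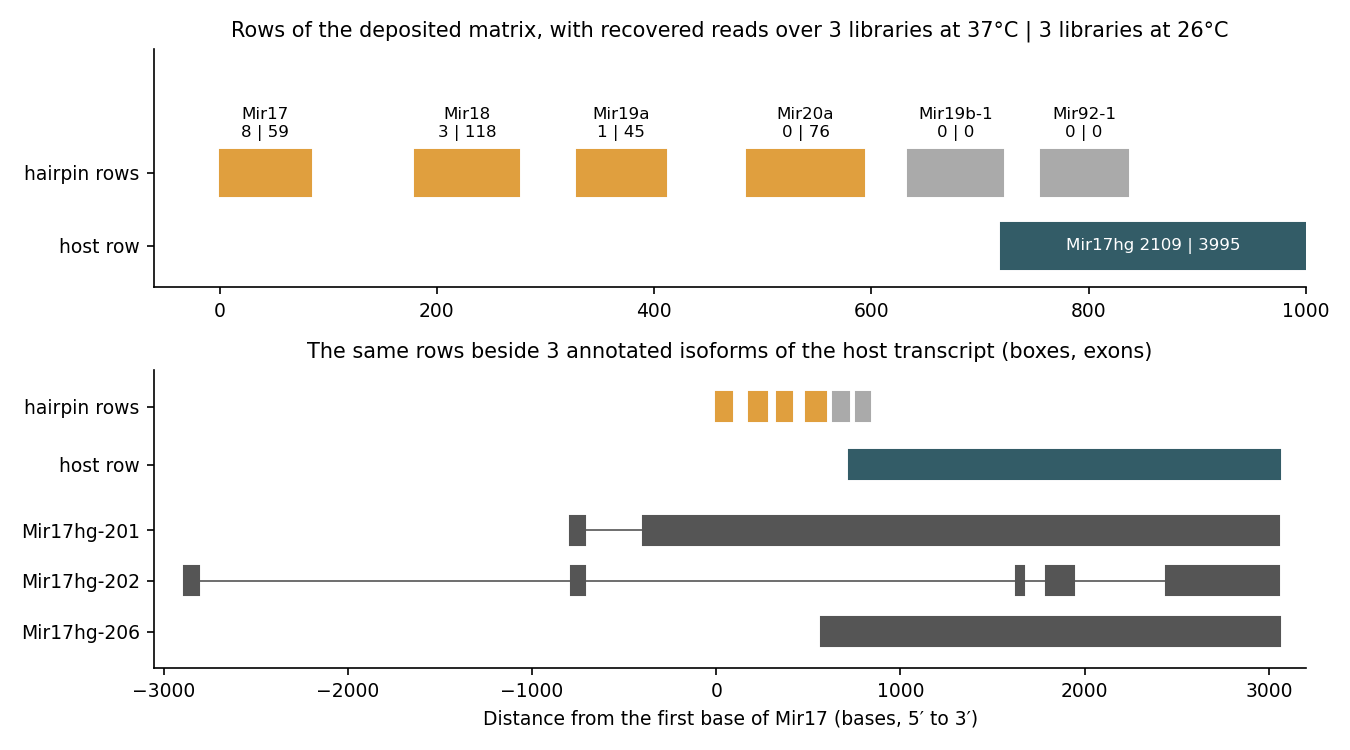
Map of the cluster by distance from the first base of Mir17, in bases. The upper panel shows the rows of the expression table with the recovered reads summed over 3 libraries at 37°C and 3 at 26°C (orange, hairpins with reads; grey, hairpins without), and the lower panel the same rows beside 3 isoforms of the host. The 4 hairpins with reads lie before the host row, and the 2 without reads touch it or lie inside it.

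The libraries held 16899628 to 31290854 reads, recovered from the TPM values as the smallest whole numbers. Of 11 T cell markers, 10 had a mean of at least 1 TPM, and their summed level was 4773 to 6039 TPM at 37°C and 3797 to 4776 TPM at 26°C. Il2ra had the largest difference in means among the 11, with 1687 ± 333 TPM at 37°C and 286 ± 59.9 TPM at 26°C (SD). The means of the other markers moved in both directions. B cell markers summed to at most 3.62 TPM at 37°C and 2.06 TPM at 26°C, with Ms4a1 at 0, and macrophage markers to at most 15.9 and 21.2 TPM. The CD4+ label held only in part. Cd4, the coreceptor of helper T cells, was at 1.09, 0.0351 and 309.7 TPM in non-acclimated replicates 1, 2 and 3. In their counterparts at 26°C it was at 1.30, 0.352 and 328 TPM, so in Cd4 both libraries of replicate 3 stand apart from the other 4. Other T cell markers set replicate 2 apart instead. Cd28 was at 54.5, 7.35 and 53.6 TPM at 37°C and 27.9, 5.61 and 36.2 TPM at 26°C. Cd3d was at 332, 64.3 and 240 TPM and 304, 78.6 and 243 TPM. Results are therefore given by replicate pair and also without replicate 3, whose removal raised the mean log2 change of each member with reads. Where a pooled hairpin ratio is given, its value without replicate 2 is given too. The labels speak of old and new RNA extractions without assigning libraries to them, so the part of extraction batch was not tested.

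Mir17hg, the host transcript, was at 22.3, 28.6 and 42.7 TPM in non-acclimated replicates 1, 2 and 3 (358, 549 and 1202 reads) and at 57.9, 105 and 25.5 TPM after cold acclimation (1171, 2215 and 609 reads). The 2 highest libraries were cold-acclimated replicates 1 and 2, but cold-acclimated replicate 3 fell between non-acclimated replicates 1 and 2, so the groups overlapped. The means were 31.2 ± 10.4 TPM at 37°C and 62.9 ± 40.1 TPM at 26°C (SD, n = 3 each). By pair, the level at 26°C was 2.59 and 3.68 times that at 37°C in replicates 1 and 2 and 0.597 times in replicate 3. The mean log2 change of 0.82 was smaller than its SD over the 3 pairs, 1.36, and was 1.59 without replicate 3.

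Mir17, the first hairpin, was at 0, 2.90 and 5.94 TPM at 37°C (0, 2 and 6 reads) and at 41.3, 34.4 and 3.50 TPM at 26°C (30, 26 and 3 reads). Cold-acclimated replicates 1 and 2 were far above the rest, while in replicate 3 the value at 26°C was below that at 37°C, so the groups overlapped. Its log2 changes on the log2(TPM + 1) scale were 5.40, 3.18 and -0.62 in pairs 1, 2 and 3. Their mean of 2.65 was smaller than their SD of 3.05, and was 4.29 without replicate 3.

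Mir18 was at 0, 1.27 and 1.73 TPM at 37°C (0, 1 and 2 reads) and at 47.0, 82.2 and 8.16 TPM at 26°C (39, 71 and 8 reads). Here every cold-acclimated library was above every non-acclimated one, with log2 changes of 5.58, 5.20 and 1.75 (mean 4.18, SD 2.11, n = 3 pairs), or 5.39 without replicate 3. With only 3 reads over all non-acclimated libraries against 118, the pooled ratio of reads over library totals was 41.9, with an exact 95% interval of 14.0 to 206 that covers counting error only. Leaving out replicate 2 at 26°C gave 24.4. Leaving out replicate 3 gave 63.6 when its library at 26°C was dropped or 69.3 when that at 37°C was. Without both libraries of replicate 2 the ratio was 25.3, and without both of replicate 3 it was 105. In each of the cold-acclimated libraries Mir18 was the hairpin with the highest TPM.

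Mir19a was at 0, 1.48 and 0 TPM at 37°C (0, 1 and 0 reads) and at 24.0, 37.9 and 0 TPM at 26°C (17, 28 and 0 reads). It was thus high in cold-acclimated replicates 1 and 2 and without a read in either library of replicate 3, and the groups overlapped at 0. The log2 changes were 4.64, 3.97 and 0 (mean 2.87, SD 2.51), with a mean of 4.31 without replicate 3. The pooled ratio was 48.0, with an exact interval of 8.18 to 1936, which shows how little 1 read at 37°C fixes the ratio. Leaving out replicate 2 at 26°C or replicate 3 at 37°C gave 26.4, and leaving out replicate 3 at 26°C gave 78.0. Dropping replicate 2 at 37°C left no read at that temperature. Without both libraries of replicate 2 the ratio was a lower bound of 6.10, over a floor of 3 reads at 37°C. Without both of replicate 3 the ratio was 43.0.

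Mir20a had no read in any non-acclimated library and was at 34.6, 43.6 and 1.83 TPM at 26°C (32, 42 and 2 reads). The groups did not overlap, although replicate 3 rests on 2 reads, and the mean log2 change was 4.04 (SD 2.21, n = 3 pairs), or 5.32 without replicate 3. Against a floor of 3 reads over the 3 non-acclimated libraries, the pooled cold-acclimated rate was at least 27.0-fold higher, for counting error only. The bound became 17.6 when replicate 2 at 26°C was left out, 42.8 for replicate 3 at 26°C and 14.9 for replicate 3 at 37°C. Without both libraries of replicate 2 the bound was 12.2, and without both of replicate 3 it was 23.5. The 2 reads of replicate 3 alone lie under the floor.

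Of the 5 members with a mean of at least 1 TPM, 2 (Mir18 and Mir20a) had every value at 26°C above every value at 37°C. Among all 12227 genes with that mean, 1185 (9.69%) did so, and 3835 (31.4%) had every value at 26°C below every value at 37°C. As the members were chosen on this contrast, nothing is read from the difference.

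Mir19b-1 and Mir92-1 were listed at 0 in all 6 libraries. They are also the 2 hairpins that share bases with the host row. featureCounts can leave out a read that overlaps more than 1 row, and the setting used is not given in the sources used here, so a value of 0 on these rows is not a measurement of absence. The stretch between neighbouring rows around each hairpin was 245 bases for Mir18, 210 for Mir19a, 223 for Mir20a and 126 for Mir19b-1, and Mir92-1 had none. Both hairpins at 0 also have a second copy on chromosome X with the same mature strand, Mir19b-2 and Mir92-2, and these rows were at 0 as well. The part that row overlap or the copies had in the zeros was not tested.

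**Figure D2:**
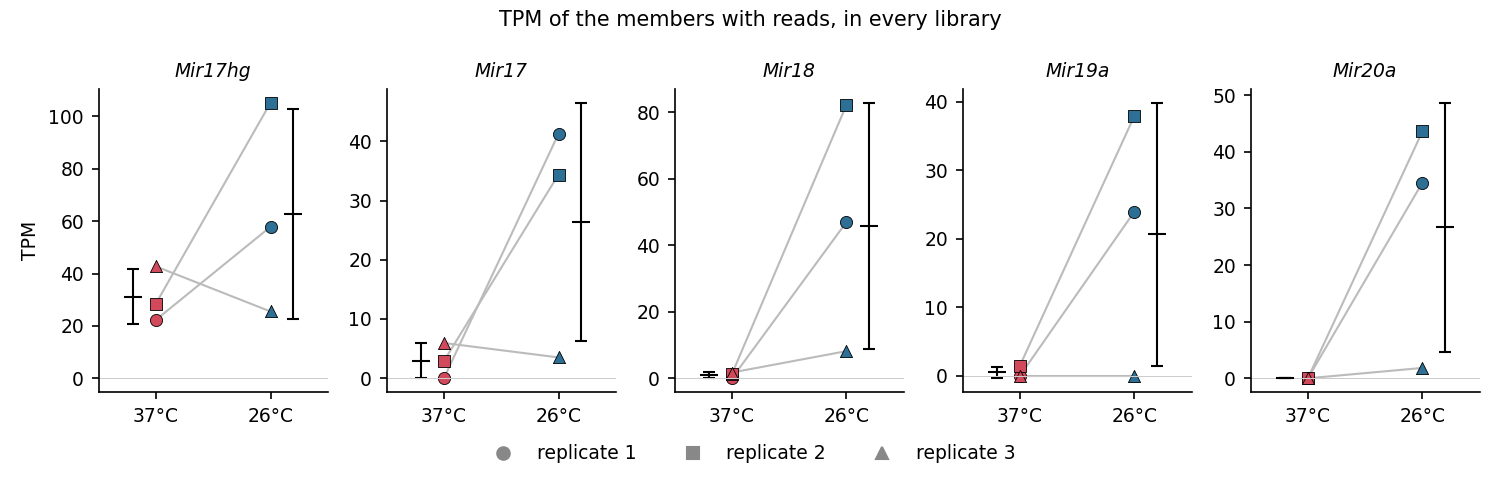
TPM (linear axes, 1 per gene) of the 5 members with reads in each library at 37°C (red) and 26°C (blue). Grey lines join libraries with the same replicate number, and black bars give the mean and SD of 3 libraries. In replicates 1 and 2 all 5 members were higher at 26°C, and in replicate 3 Mir17hg and Mir17 were lower.

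The difference between the temperatures was larger on the hairpins than on the host row. The 4 hairpins with reads together held 0 of 358 cluster reads in non-acclimated replicate 1, which allows a share of up to 0.838% at a floor of 3 reads (95% Wilson upper bound 1.06%), then 4 of 553 reads (0.723%, 95% Wilson interval 0.282 to 1.84) in replicate 2 and 8 of 1210 reads (0.661%, 0.335 to 1.30) in replicate 3. In cold-acclimated cells they held 118 of 1289 reads (9.15%, 7.70 to 10.9), 167 of 2382 reads (7.01%, 6.05 to 8.11) and 13 of 622 reads (2.09%, 1.23 to 3.54). The share was higher at 26°C in 3 of 3 pairs, and every cold-acclimated library was above every non-acclimated one. The ratio of shares was 9.69 in pair 2 and 3.16 in pair 3, and none is given for pair 1, where the share at 37°C was 0. In pair 3 the share was higher at 26°C while the level of the host row was lower, although the intervals of the 2 libraries overlap (0.335 to 1.30 against 1.23 to 3.54). These intervals cover counting error only. The 4 hairpin rows with reads lie 53 to 96 bases apart, so a read can touch more than 1 of them. How such reads were treated is not given, and their part in the share was not tested.

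Per length, the mean level of the 4 hairpins was 0%, 4.94% and 4.49% of the host level at 37°C and 63.4%, 47.1% and 13.2% at 26°C. Every cold-acclimated library was again above every non-acclimated one. As the contrast is the one that chose the members, this too is a description. Drosha, the nuclease that cuts these hairpins, was at 21.9, 19.1 and 53.8 TPM in cold-acclimated replicates 1, 2 and 3. The share was lowest in replicate 3, where Drosha was highest, but both were higher in replicate 1 than in replicate 2. At 37°C Drosha was at 54.2, 64.4 and 89.9 TPM, and the share was lowest in replicate 1, where Drosha was lowest. The part of Drosha in the share was not tested.

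**Figure D3:**
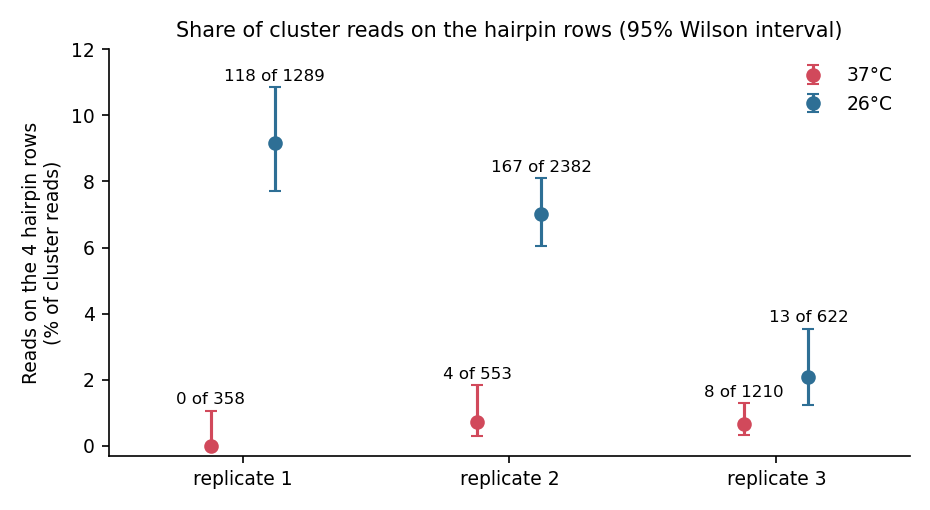
Reads on the 4 hairpin rows as a percentage of cluster reads (hairpins plus host row) for each replicate at 37°C (red) and 26°C (blue), with 95% Wilson intervals and the reads printed above. The cold-acclimated share is the higher in each pair, from 2.09% to 9.15%, against at most 0.723% at 37°C.

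Genes whose pattern was most like that of the members were ranked by Pearson's r on log2(TPM + 1) over the 6 libraries, as a description among 12227 genes and with no p. For the summed hairpin TPM the nearest were Brd1 (0.994), Gm23245 (0.993), Kmt5a (0.988), Smyd5 (0.987) and Asb6 (0.987). Brd1, a bromodomain protein, ran from 31.9, 36.4 and 36.5 TPM at 37°C to 46.2, 48.2 and 39.7 TPM at 26°C, a far smaller span than that of the hairpins. Kmt5a, a histone H4 methyltransferase, ran from 94.7, 124 and 132 TPM to 181, 201 and 149.7 TPM. For Mir17hg the nearest were Rbak (0.977), Gm23136 (0.976), Atxn7l3 (0.975), Fosl2 (0.970) and Chchd5 (0.961). The correlation of Mir17hg with the summed hairpins was 0.876. All points share 6 libraries, among which the pair of replicate 3 stands apart in Cd4 and that of replicate 2 in Cd28 and Cd3d.

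The remaining results concern genes that the rule did not use. They were tested with limma on log2(TPM + 1) over the 12227 genes, with p adjusted over all of them by Benjamini-Hochberg. A gene was called when its adjusted p was under 0.05 and its log2 change was at least 1 in size. Over all tested genes 2.63% were called upregulated and 16.0% downregulated at 26°C, and the median log2 change was -0.34. When libraries were rescaled by the median of ratios, that median became 0.02 and the shares became 6.56% and 8.79%, so a fall in TPM near the median is not a fall under the other scaling. The shares were 3.75% and 21.9% with the replicate number as a block, 3.34% and 13.9% with voom on the recovered reads, and 5.34% and 25.3% without replicate 3, and the counts of calls below stand beside these. In bulk RNA, fewer cells with a transcript and less of it per cell cannot be told apart.

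Among the proteins that cut these hairpins and load their products, both helicases of the Microprocessor changed, in opposite directions, and 2 of 3 Tnrc6 genes fell. Of 24 listed genes 23 were tested, 1 was called upregulated and 3 downregulated. These 4 of 23 are near the 18.6% called over all tested genes (2.63% upregulated and 16.0% downregulated), so the count is no result about the list. The list median was -0.50, and 19 of the 23 log2 changes were below 0, as were 8137 of the 12227 over all tested genes. Under median of ratios scaling the list median was -0.10 with 15 of 23 below 0, against 5980 over all genes, and 3 genes were called (Ddx5 up, Ddx17 and Tnrc6c down). Ddx5 (p68), an RNA helicase of the Microprocessor, was at 499.7, 528 and 606 TPM at 37°C and at 1191, 1193 and 1164 TPM at 26°C. All 3 cold-acclimated libraries were above the others, and the gene rose by 1.12 ± 0.21 on the log2 scale (SE, adjusted p = 0.014). Ddx17 (p72), its close paralog, went the opposite way, from 141, 119 and 217 TPM to 36.4, 37.4 and 76.5 TPM. It fell by 1.68 ± 0.37 (adjusted p = 0.021), with no overlap between the groups.

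Tnrc6c, a GW182 protein through which Argonaute silences its targets, fell by 2.89 ± 0.30 (adjusted p = 0.0067). It went from 26.3, 30.6 and 29.1 TPM to 1.84, 3.19 and 4.36 TPM, the largest change of the list. Tnrc6b fell as well, by 1.31 ± 0.31 (adjusted p = 0.027), a call that was lost under median of ratios scaling, with and without the block, and with no filter on low values, whereas Tnrc6a had a log2 change of -0.16 (adjusted p = 0.72).

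Drosha was at 54.2, 64.4 and 89.9 TPM at 37°C and at 21.9, 19.1 and 53.8 TPM at 26°C, lower in each pair and without overlap. Its log2 change of -1.23 ± 0.41 had an adjusted p of 0.070, which became 0.013 with the replicate number as a block and 0.0074 without replicate 3. Under median of ratios scaling the change was -0.84, with an adjusted p of 0.14, or 0.030 with the block but short of the fold threshold, and the adjusted p reached 0.21 with 1 library left out. Dgcr8, its partner, had a log2 change of -0.89 (adjusted p = 0.14) and Dicer1 of -0.65 (adjusted p = 0.076), and neither was called under any alternative. Dicer1 went from 21.8, 21.4 and 27.0 TPM to 14.5, 15.0 and 13.8 TPM without overlap. Of the Argonautes, Ago2 was at 48.8 ± 5.11 TPM at 37°C and 34.8 ± 4.21 TPM at 26°C (adjusted p = 0.16), Ago1 had an adjusted p of 0.077, and the exporter Xpo5 one of 0.16. The list had 1 call, Tnrc6c, without any single library of replicates 1 or 2, 7 calls without cold-acclimated replicate 3, and 8 (1 up, 7 down) without both libraries of replicate 3.

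The paralogous clusters offered a comparison with hairpins of the same seeds. Mir106b, Mir93 and Mir25 lie in introns of Mcm7, a subunit of the replicative helicase, and the Mir106a-363 cluster lies on chromosome X. Mir106b, which shares the seed of miR-17-5p, was at 1.78, 0 and 0 TPM at 37°C (1, 0 and 0 reads) and at 4.23, 13.5 and 4.78 TPM at 26°C (3, 10 and 4 reads). The groups did not overlap. Its mean at 37°C was 0.593 TPM, so it passed the filter of 1 TPM only through the libraries at 26°C. Its call as upregulated (log2 change 2.44 ± 0.56, adjusted p = 0.024) is therefore a description of these few reads and no support for a difference. The call was lost without cold-acclimated replicates 1 or 2, without non-acclimated replicates 2 or 3, with no filter on low values and with voom on the recovered reads (adjusted p up to 0.088 over the alternatives).

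Mir93 was listed at 0 at 37°C and at 0, 6.31 and 4.45 TPM at 26°C, so it too passed the filter only through the libraries at 26°C, and its log2 change of 1.77 is given with no test. Mir25 was at 5.21, 0 and 26.7 TPM at 37°C and 5.50, 14.5 and 7.0 TPM at 26°C (adjusted p = 0.65). Their host Mcm7 was lower at 26°C in each pair. It was at 137, 191 and 239 TPM at 37°C and at 17.6, 20.5 and 195 TPM at 26°C, so cold-acclimated replicates 1 and 2 were low and replicate 3 was not. Its log2 change of -2.11 had an adjusted p of 0.11, which became 0.024 with the block and 0.0035 (log2 change -3.02) without replicate 3. Of the 6 hairpins on chromosome X, 5 were listed at 0 throughout and Mir363 had 3 reads in non-acclimated replicate 3. In all, 4 of the 10 genes were fitted and 1 was called (Mir106b), beside 18.6% of all tested genes. The block gave 3 calls (Mir106b, Mir93 and Mcm7), beside 3137 of all 12227 tested genes. There were 2 calls without cold-acclimated replicate 3 or without replicate 3, and 0 with voom. As Mir106b and Mir93 passed the filter only through the libraries at 26°C, these counts are no result about the clusters.

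No known activator of the cluster was called upregulated, beside 2.63% of all tested genes, and the 3 E2F activators fell. Of 12 regulators 11 were tested, 0 were called upregulated and 4 downregulated (E2f1, E2f2, E2f3 and Trp53), the latter beside 16.0% of all tested genes. At a share of 2.63%, 0 of 11 is no result about the regulators. The count of regulators called upregulated was 0 under each alternative, voom included. At an unadjusted p under 0.05 limma gave 0 higher regulators, but 1 under median of ratios scaling and 3 with block and scaling. Over all 12227 tested genes the same rule gave 948, 2213 and 2954 higher genes, so these counts are no result about the regulators. Myc, which binds the promoter of the host, was at 168, 413 and 621 TPM at 37°C and at 369, 873 and 430.1 TPM at 26°C. It was higher at 26°C in pairs 1 and 2 and lower in pair 3, and its log2 change of 0.56 ± 0.53 had an adjusted p of 0.48. Mir17hg, chosen on this contrast, had the same direction by pair, and the part of Myc in its level was not tested. E2f1, a cell cycle factor that both activates the cluster and is targeted by it, went from 30.0, 33.9 and 35.1 TPM to 10.2, 5.74 and 17.3 TPM. It fell by 1.61 ± 0.37 (adjusted p = 0.025), E2f2 by 2.09 ± 0.59 (adjusted p = 0.045) and E2f3 by 1.42 ± 0.34 (adjusted p = 0.026), each without overlap. E2f2 and E2f3 were not called under median of ratios scaling alone. Trp53, which encodes p53 and is known to repress the cluster, fell by 1.74 ± 0.38 (adjusted p = 0.022), from 160, 182 and 223 TPM to 47.2, 35.5 and 99.5 TPM. The list had 0 calls without any single library of replicates 1 or 2, 2 without non-acclimated replicate 3, 2 under the other scaling and 5 without replicate 3.

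Several genes known as targets of the cluster were lower at 26°C, led by Creb1, E2f2 and E2f1, and none was called upregulated. Of 22 targets 18 were tested, 0 were called upregulated and 7 downregulated (Creb1, Cyld, E2f1, E2f2, E2f3, Rb1 and Rbl2), with a list median of -0.95, or -0.57 under median of ratios scaling. Over all tested genes 2.63% were called upregulated and 16.0% downregulated. At the former share, 0 of 18 is no result about the targets. At an unadjusted p under 0.05, limma gave 2 higher and 8 lower targets of 18, beside 948 higher and 3664 lower of all 12227 tested genes. With voom 0 targets were called upregulated and 5 downregulated, beside 3.34% and 13.9% of all tested genes. The 3 E2F genes are counted here and among the regulators. Creb1, a transcription factor of cAMP signalling, went from 22.5, 23.1 and 17.1 TPM to 2.67, 2.44 and 4.73 TPM and fell by 2.38 ± 0.30 (adjusted p = 0.0070). Cyld, a deubiquitinase that limits NF-kB signalling, went from 32.0, 28.1 and 24.5 TPM to 11.6, 12.3 and 15.4 TPM and fell by 1.05 ± 0.24 (adjusted p = 0.023). Rb1, Rbl1 and Rbl2, the pocket proteins that hold E2F factors in check, had log2 changes of -1.01, -1.52 and -1.15, with adjusted p of 0.036, 0.062 and 0.027.

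Bcl2l11 (Bim), a killer protein of the Bcl2 family, reached only 0.0694 TPM in non-acclimated replicate 3 and was listed at 0 elsewhere, and Tgfbr2 and Rora were also at or near 0, so these targets could not be compared. Ikzf4 had a log2 change of 1.04 (adjusted p = 0.10). Under the other scaling 3 targets were called, Ikzf4 upregulated and Creb1 and E2f1 downregulated. The list had 1 call, Creb1, without any single library of replicates 1 or 2 and 11 without replicate 3.

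**Figure D4:**
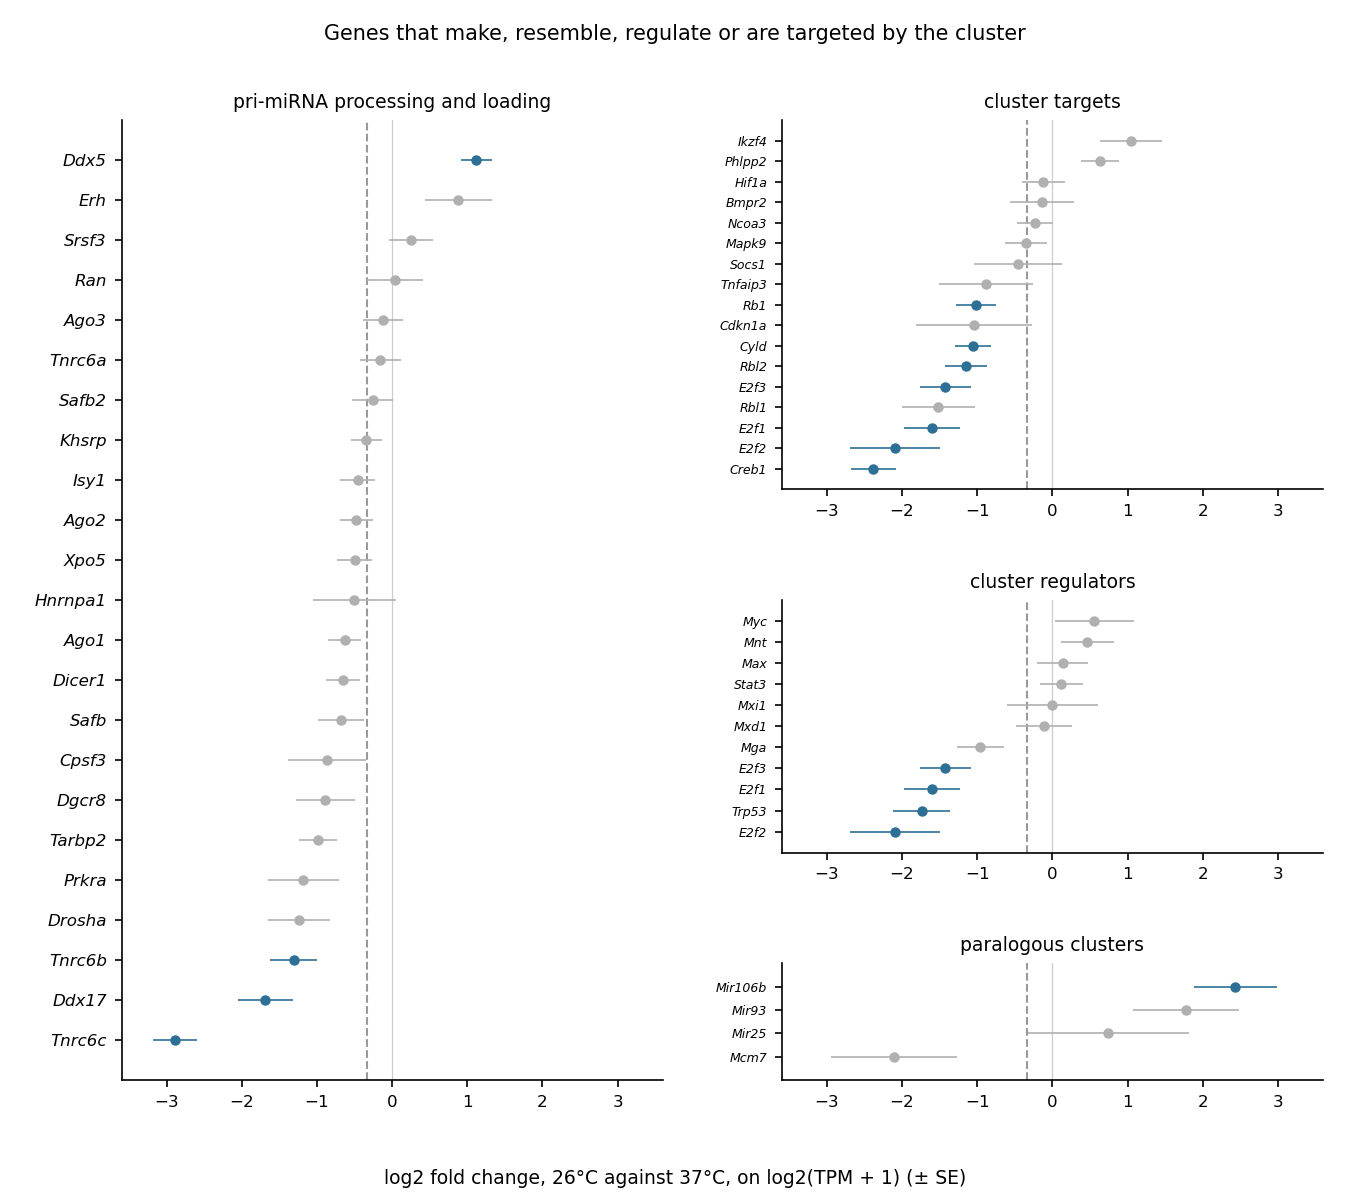
Log2 change at 26°C against 37°C (x axis, with SE from limma) for the tested genes of 4 lists, 1 gene per line, with 1 target left out. Blue points were called at an adjusted p under 0.05 and a change of at least 1, and the dashed line marks the median of all tested genes, -0.34. Ddx5 and Mir106b are the only called genes to the right of 0.

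The seeds allow the targets to be looked at without a list. A site was taken as the 8 letters that pair with bases 2 to 8 of the mature strand followed by A, searched on the transcript strand of the longest annotated 3′ UTR of each gene (GENCODE vM39). The letters are GCACTTTA for miR-17-5p and miR-20a-5p, GCACCTTA for miR-18a-5p, TTTGCACA for miR-19a-3p and miR-19b-3p, and GTGCAATA for miR-92a-3p. A match is a description of letters and not a shown site. Cyld, a target that fell but was not called under median of ratios scaling, holds a match for 1 of the 4 seeds. It is shown here with its flanks in lower case and the match in capitals.
Cyld, miR-17-5p and miR-20a-5p, chr8:89475101-89475128: tgttatttttaaagGCACTTTActcctt

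This match is on the plus strand of GRCm39. Among the other targets, E2f3 and Rb1, which fell, each held an 8-letter match for miR-17-5p and miR-20a-5p. Ikzf4 and Phlpp2, with log2 changes of 1.04 and 0.63, held such matches too. Those of Ikzf4 were for that seed and for miR-92a-3p, and that of Phlpp2 was for miR-92a-3p. Ncoa3, Bmpr2, Socs1 and Tnfaip3, none of them called with all 6 libraries, had log2 changes of -0.23, -0.14, -0.46 and -0.88. They too held 8-letter matches, Ncoa3 for miR-17-5p and miR-20a-5p, Bmpr2 for miR-92a-3p, and Socs1 and Tnfaip3 for miR-19a-3p and miR-19b-3p. Creb1, the target with the largest change, held no 8-letter match for any of the seeds and 3 of the 7-letter matches (GCACTTT, without the A) for miR-17-5p and miR-20a-5p. E2f1 held 2 of these 7-letter matches and no 8-letter match.

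Among 10208 tested genes with a 3′ UTR, 546 (5.35%) held an 8-letter match for miR-17-5p and miR-20a-5p. Their median log2 change was -0.34, against -0.36 for the 9662 genes without it, a difference of 0.02. By pair the difference was -0.04, 0.12 and -0.05, so it changed sign between pairs. Downregulated calls made up 18.1% of the genes with a match and 16.9% of those without, and upregulated calls made up 3.30% of those with a match.

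For miR-18a-5p, whose hairpin had the highest TPM at 26°C, 203 genes (1.99%) held a match and their median was 0.09 above that of the rest (0.09, 0.22 and 0.02 by pair). Over the 1235 genes with a 7-letter match the difference was -0.0032, with -0.02, 0.03 and -0.03 by pair. For miR-19a-3p and miR-19b-3p the difference over 712 genes (6.97%) was 0.02 (-0.02, 0.08 and -0.02 by pair), with downregulated calls at 21.3% with and 16.7% without a match. For miR-92a-3p, whose hairpin was at 0, it was 0.06 over 306 genes (3.00%), with 0.09, 0.13 and 0.03 by pair. None of the 4 groups of genes with an 8-letter match had a lower median than genes without it.

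3′ UTRs with a match are longer, with medians of 3059.5 bases for the miR-17-5p group against 1788.5 bases without, so the comparison was repeated within 3 equal classes of 3′ UTR length. In the longest class (2646 bases and more) the differences were 0.07 for miR-17-5p and miR-20a-5p, 0.18 for miR-18a-5p, 0.05 for miR-19a-3p and miR-19b-3p and 0.15 for miR-92a-3p. In the middle class they were -0.03, 0.11, 0.05 and -0.03, so those of the first and the last seed had the opposite sign. In the shortest class, the 15 genes with a miR-18a-5p match had a median difference of -0.40 from the rest, and the other 3 differences lay between -0.03 and 0.03.

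**Figure D5:**
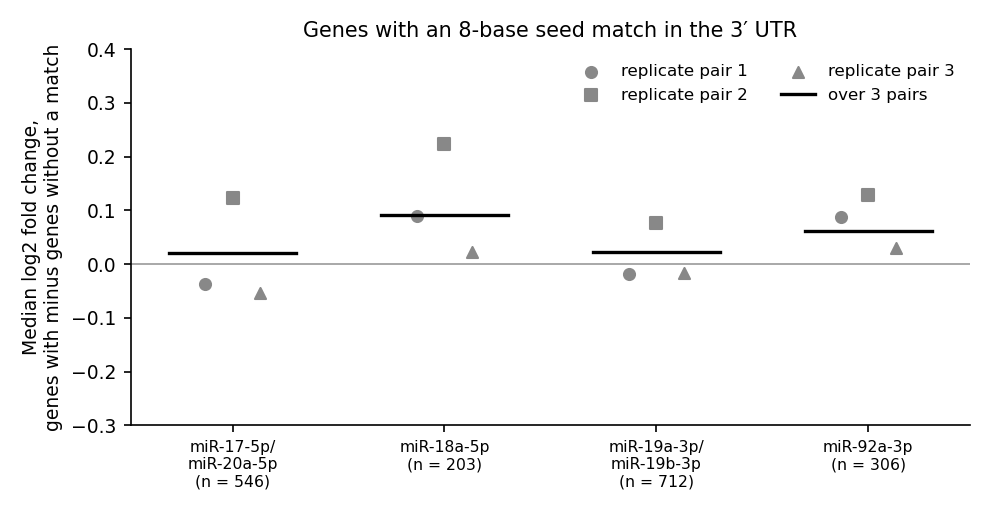
Median log2 change of genes with an 8-letter 3′ UTR match minus that of genes without (y axis), for the 4 seeds (x axis, with the number of genes with a match). Symbols give replicate pairs 1, 2 and 3 and black lines the fit over the 3 pairs, which lie between 0.02 and 0.09.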

How the data were processed

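Poly(A)+ RNA from 6 D10 T cell libraries was sequenced for the authors, whose processing notes list FastQC 0.11.7, Trimmomatic 0.38, HISAT2 2.1.0, featureCounts 1.6.3 and GRCm39. The values used are the TPM deposited by the authors, as counts divided by gene length and scaled per library. The sources used here do not give the annotation release, the strand setting, the treatment of reads on more than 1 row, or whether a count is a read or a read pair. Read numbers were recovered from the TPM steps. They were whole within 1e-06 for 100% of 21195 genes above 0, and totals ran from 16899628 to 31290854. The length of each gene was taken as the smallest that gave whole numbers, so wholeness is largely built in. A gene's reads, and with them the totals, can therefore be too low. Reads of the members used the length of their own rows. Precision on the hairpin rows is set by these few reads.

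The authors' methods name DESeq2 on counts. As the file holds TPM, limma 3.58.1 (R 4.3.3, with trend) was fitted to log2(TPM + 1) over 12227 genes with a mean of at least 1 TPM, for condition only, and the procedure was tested on simulated data. Other values came from scipy 1.17.1, pandas 2.3.3 and numpy 2.4.6 under Python 3.11.15, and figures from matplotlib 3.10.9. The members, the gene lists and the tests were chosen with earlier results of these data known. Named genes were the 7 members, the 3 genes of each list with the smallest p, Drosha, Dgcr8, Dicer1, Myc, E2f1, Bcl2l11 and Mcm7, the 5 most correlated genes per pattern and the neighbours. Others named (Tnrc6a, Tnrc6b, the Argonautes, Xpo5, Mir25, E2f2, Rb1, Rbl1, Rbl2, Ikzf4, Phlpp2, Ncoa3, Bmpr2, Socs1, Tnfaip3, Tgfbr2, Rora, Il2ra, Cd28 and Cd3d) were chosen after their values were seen. A further target that the rule names counts in its list but is not reported here.

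Libraries with the same replicate number deviated from their group means together (correlations of 0.48, 0.50 and 0.51, against -0.41 to 0.02 for other pairings), so the numbers pair the libraries, and a fit with the replicate as a block was an alternative. The libraries are described as independently prepared, and p-values measure the spread between them. Other alternatives were a pseudocount of 0.1 TPM, no filter on low values, median of ratios scaling, voom on recovered reads and leaving out each library. Leaving out replicate 3, combining block and scaling, and the pooled hairpin ratios with libraries left out were added after seeing the data.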

Additional observations from a re-analysis of the deposited data

How the results depend on the processing

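The mean log2 changes of the 5 members with reads kept their direction under every alternative run. This is a description, as the members were chosen on this contrast. Within pair 3, Mir17hg and Mir17 were lower at 26°C and Mir19a had no read at either temperature. The mean log2 change of Mir17hg ran from 0.34 without cold-acclimated replicate 2 to 1.35 without cold-acclimated replicate 3 when 1 library was left out, was 1.59 without both libraries of replicate 3, and 1.21 under median of ratios scaling. That of Mir20a, whose non-acclimated libraries hold no read, became 7.16 with a pseudocount of 0.1 TPM. Over all tested genes, 321 upregulated and 1954 downregulated calls became 184 and 1121 without a filter, 802 and 1075 under median of ratios scaling, 458 and 2679 with the replicate block, 1086 upregulated with block and scaling, and 653 and 3088 without replicate 3. Leaving out 1 library gave 59 to 459 and 345 to 2725 calls. The cause of these moves was not tested.

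Calls in the paralogous clusters (1) became 0 without a filter, 3 with the replicate block, 2 with block and scaling, 0 with voom and 2 without replicate 3, and ran from 0 to 2 with 1 library fewer. Calls among processing genes (4) became 2 without a filter and 8 without replicate 3, and ran from 1 to 7. Calls among regulators (4) became 0 without a filter and 2 under the other scaling, and ran from 0 to 4. Calls among targets (7) became 3 without a filter, 3 under the other scaling and 11 without replicate 3, and ran from 1 to 8. Besides Mcm7, Mir93, Drosha and Rbl1, which the replicate block brought past the threshold, it changed no call of a named gene, and with block and scaling together Mir93, Drosha and Rbl1 were not called. Tnrc6c and Creb1 were called under 13 of 13 alternatives. Of 195 values for named genes under alternatives, 40 were no longer called, 9 became called and 0 changed direction. The difference for miR-19a-3p and miR-19b-3p matches became 0.084 among genes of at least 10 TPM, and that for miR-18a-5p became -0.0032 with 7-letter matches. The few hairpin reads at 37°C, 0 to 6 per row and library, limit each hairpin ratio.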
